A study of Macaca mulatta with 30 samples.

Results

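Complement and coagulation factors were described across liver, pancreas, parotid, submandibular and sublingual gland of 6 rhesus macaques (Macaca mulatta). The members are a list of 49 genes, of which 48 had a row under their own name in the deposited abundance table of 21292 genes. C1R had none. Each animal gave 1 RNA sequencing library per tissue, 30 libraries in all, so each tissue had 6 animals as biological replicates. Per the labels, animals 1 to 4 were female, animals 5 and 6 were male, no treatment was named, all tissue had been flash frozen, and the parotid of animal 3 carried the mark of the right gland where the others came from the left. Values are TPM (transcript abundances scaled to a fixed total), which correct for transcript length and sum to the same total in every library, so the depth of each library is unknown. A gene's level in whole tissue reflects both the number of cells that make it and the RNA per cell, and these cannot be told apart here.

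Complement is a set of plasma proteases and binding proteins that mark microbes and damaged cells, and 3 starting routes (classical, lectin and alternative) meet at the cleavage of C3 and end in a membrane pore. Coagulation is a parallel protease cascade in which tissue factor or a charged surface starts the reactions that end with thrombin turning fibrinogen into fibrin. Hepatocytes secrete most of these factors into plasma, while macrophages, fat cells, endothelium and some epithelia are known sources of particular ones.

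3 libraries of animal 4 went against their labels. The summed level of 10 pancreatic acinar markers was 2991 TPM in its pancreas library and 125100 to 272000 TPM in the other 5. The summed level of 7 salivary markers was 2323 TPM in its submandibular library and 235700 to 355000 TPM in the other 5. In its sublingual library the same sum was 4400 TPM, beside 36640 to 348300 TPM in the other 5 and 6429 to 9466 TPM in liver. The pancreas and submandibular libraries of animal 4 carried more adipocyte, blood, macrophage, endothelial and fibroblast marker RNA than any other library of their tissue. The parotid of animal 6 kept its salivary markers but had a skeletal muscle sum of 93650 TPM. Estimates printed here that changed their call, or moved by over 1.5 times in fold, without libraries of animal 4 are given both ways.

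Liver was the main site of these genes. Members together made up 2.30% ± 0.812 of all TPM in liver (SD, n = 6). The median over animals was 2.42% in liver, 0.0677% in pancreas, 0.0677% in sublingual gland, 0.0219% in submandibular gland and 0.0253% in parotid. By the median over animals, 43 of the 48 members were highest in liver, F8 was highest in pancreas, and F3, VWF, THBD and F13A1 were highest in sublingual gland. By the mean, 41 were highest in liver, because CFD and C7 had their highest mean in pancreas through the library of animal 4. The shares of all genes highest in liver are not given here.

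Each of the other tissues was compared with liver by limma on log2(TPM + 1), with animal as a block and p-values adjusted by Benjamini-Hochberg over the 13550 genes that reached 1 TPM in 6 libraries or more. F13A1 missed that filter, and 47 members were tested. In parotid, 42 members were lower than liver and 0 higher, where 53.4% of all genes tested were lower and 4.61% higher. In submandibular gland, 42 were lower and 0 higher, against 45.1% and 5.68% of all genes.

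In sublingual gland, 41 were lower and 0 higher, against 18.7% and 12.8% of all genes. In pancreas, 41 were lower and 1, F8, was higher, against 23.6% and 6.76% of all genes. The share of all genes below liver differed widely between tissues, whereas the number of members below liver stayed at 41 or 42. Of the 47 tested, F5, F7, F9, F11, KLKB1 and F13B passed the filter only through the liver libraries. The median log2 fold change of the members against liver was -5.78 in parotid, -5.73 in submandibular gland, -5.17 in sublingual gland and -5.08 in pancreas, and that of all genes tested was -0.84, -0.70, -0.10 and -0.36. With trimmed-mean scaling of the libraries, the medians of all genes came to 0.00, -0.02, 0.01 and -0.04, those of the members to -4.86, -4.75, -4.86 and -4.63, and the members lower than liver numbered 42, 42, 41 and 41. Under that scaling, 21.6% of all genes were lower and 15.2% higher than liver in pancreas, 23.7% and 20.4% in sublingual gland, 25.9% and 20.8% in submandibular gland, and in parotid 3186 genes (23.5%) were lower and 2715 higher.

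40 members were lower than liver in all 4 other tissues. The tested members that were not are CFD, C5, C7, F3, F8, VWF and THBD. The same count over all genes is not given here. The 40 include the 6 members that passed the filter only through liver. Without those 6, the members lower than liver were 36 of 41 in parotid and in submandibular gland. They were 35 of 41 in sublingual gland and in pancreas.

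To place the low values outside liver, each member was expressed as a percent of its level in the liver of the same animal, beside 14 hepatocyte genes that are not members (ALB, APOA1, TTR and others). The median hepatocyte gene stood at 0.854% of its liver level in pancreas, 0.594% in parotid, 0.868% in sublingual gland and 0.610% in submandibular gland. In the 3 glands, the medians of all 14 lay between 0.352% and 1.04%. In pancreas they lay between 0.642% and 16.7%, with FETUB the highest. The reverse held at a like size: in the 5 animals other than animal 4, the 10 acinar markers stood in liver at a median of 0.919% of their pancreas level. What produces these shares was not tested.

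21 members lay near the hepatocyte share in all 4 tissues, meaning that they exceeded 2 times the share of the median hepatocyte gene in at most 1 animal per tissue, a rule chosen after the values had been seen. These were MBL2, C6, C8A, C8B, C8G, C9, C4BPA, C4BPB, VTN, F2, F9, F11, F12, KLKB1, KNG1, FGA, FGB, FGG, F13B, PLG and CPB2. Their medians ran from 0.726% to 1.26% of liver in pancreas, 0.451% to 1.08% in parotid, 0.425% to 1.02% in submandibular gland and 0.597% to 1.26% in sublingual gland. All of the fibrinogen chains, the contact system and the C8 subunits belong to this set. 23 members exceeded 2 times that share in at least 5 of 6 animals in some tissue, 16 of them in pancreas, 15 in parotid, 20 in sublingual gland and 12 in submandibular gland. C3, F7, PROC and PROZ fell in neither set. The same counts over all genes are not given here. Of all genes tested, the median log2 fold change against liver was -0.84 in parotid and -0.70 in submandibular gland. It was -0.10 in sublingual gland and -0.36 in pancreas. Such a median gene lies far above 2 times the hepatocyte share. Passing that mark thus does not set a member apart from genes in general.

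**Figure D1:**
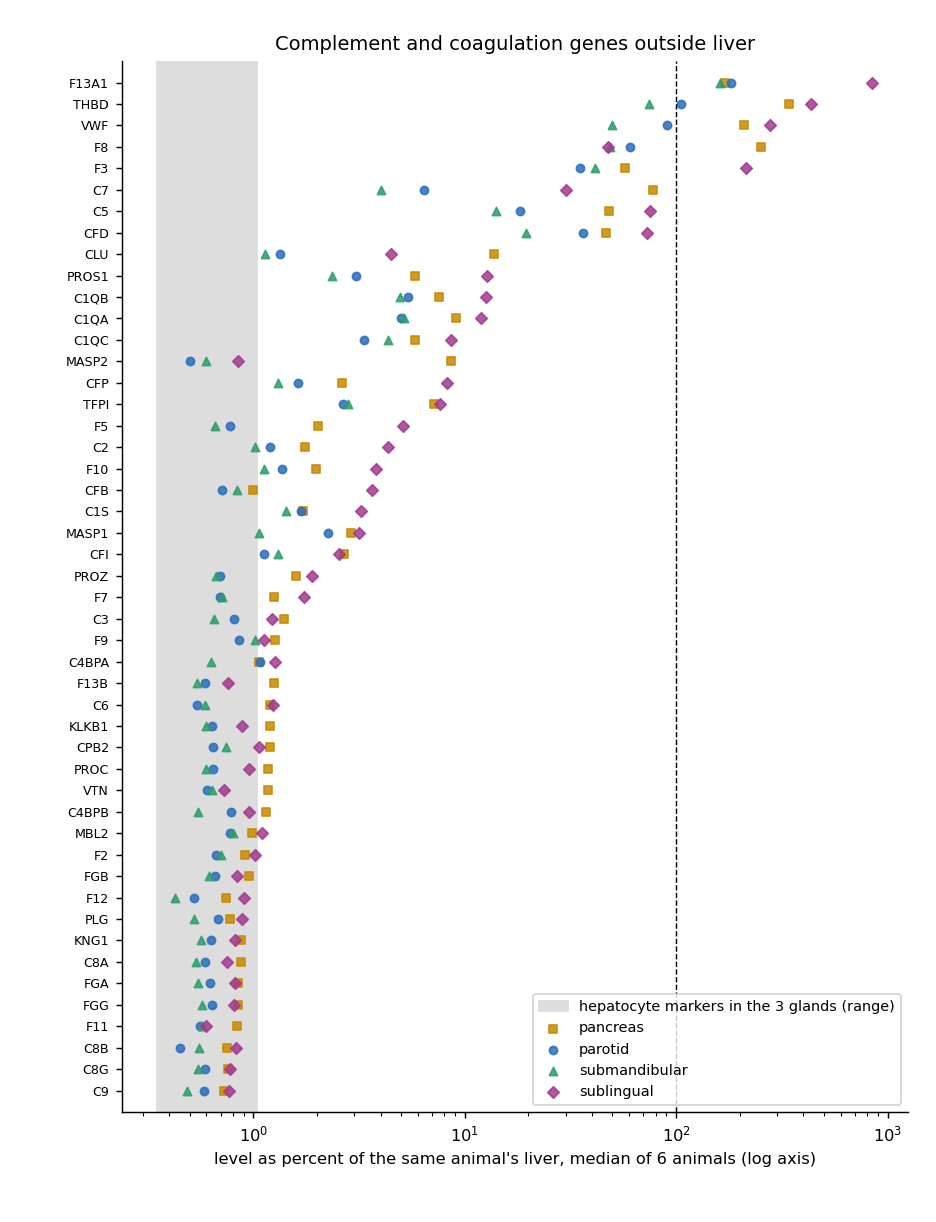
Each row is 1 member, and each point is the median over 6 animals of its level in pancreas, parotid, submandibular or sublingual gland as a percent of the same animal's liver (log axis). The grey band is the range of 14 hepatocyte genes in the 3 glands, 0.352% to 1.04%, and the dashed line marks the liver level; the lower rows lie in or beside the band and the top rows lie near or past the line.

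FGB and FGG were the most abundant members in liver by the mean, and FGA, the third fibrinogen chain, came after VTN. Elsewhere other members exceeded FGB, whose median was 29.5 TPM in pancreas, where CLU had 215 TPM, and 26.0 TPM in sublingual gland, where C5 had 160.1 TPM. FGB, which encodes the beta chain, ranged from 1296 to 4621 TPM in liver with a median of 3474, and from 14.0 to 40.5 TPM in the 24 other libraries. FGG, the gamma chain, ranged from 672 to 3781 TPM in liver with a median of 2667, and its medians elsewhere were 15.4 to 20.2 TPM. No library outside liver came near the lowest liver value for either gene. The log2 fold change of FGB against liver was -7.11 in parotid (SE 0.29, adjusted p = 2.66e-17 by limma) and -6.56 in pancreas (SE 0.29, adjusted p = 2.03e-16 by limma), lower in 6 of 6 animals in each. Among the other genes of fibrin and its breakdown, plasminogen (PLG) had a median of 889 TPM in liver and at most 10.8 TPM elsewhere, and CPB2, which removes the plasminogen-binding ends of fibrin, a median of 197 TPM in liver and at most 3.09 TPM elsewhere. The 2 subunits of factor XIII, which crosslinks fibrin, parted: F13B, the carrier subunit, had a liver median of 46.7 TPM, and F13A1, the catalytic subunit, had one of 0.0967 TPM.

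F13A1 was at 1 TPM or more in only 4 libraries and was not tested. Its sublingual values ran from 0.0853 to 1.28 TPM with a median of 0.583. Its parotid values ran from 0.0663 to 0.221 TPM. The libraries of animal 4 held the highest values, 16.4 TPM in submandibular gland and 4.61 TPM in pancreas.

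The contact system, which starts clotting on charged surfaces, was lower than liver for all 4 members in all 4 tissues, although F11 and KLKB1 passed the filter only through liver and so lend that count no weight. KNG1, the kininogen gene, had a liver median of 472 TPM (278 to 697) and medians of 2.86 to 4.02 TPM elsewhere. F12, the factor that is activated first, had a liver median of 406 TPM (308 to 612) and medians of 1.92 to 3.68 TPM elsewhere. The groups did not overlap for either gene.

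All 7 vitamin K-dependent factors were lower than liver in all 4 tissues, of which F7 and F9 passed the filter only through liver. F2, prothrombin, ranged from 306 to 1008 TPM in liver with a median of 615, and its medians elsewhere were 4.27 to 6.09 TPM. PROC, the zymogen of the anticoagulant protease protein C, ranged from 338 to 529.8 TPM in liver and had medians of 2.90 to 4.76 TPM elsewhere. PROS1, the cofactor of activated protein C, departed from these: it stood at 12.7% of liver in sublingual gland and 5.83% in pancreas, with a median of 2.02 TPM in sublingual gland where liver had 28.8 TPM. Its shares ranged from 1.22% to 38.5% in sublingual gland and from 0.900% to 107% in pancreas, the highest pancreas share being that of animal 4, and without animal 4 the medians were 5.04% and 2.14%. F10, the protease that makes thrombin, stood at 3.82% of liver in sublingual gland with a median of 6.28 TPM.

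Among the 6 cofactors and endothelial regulators, only F5 and TFPI were lower than liver in all 4 tissues, and F5 passed the filter only through liver. Their summed level was still highest in liver, with a median of 65.7 TPM, beside 18.7 TPM in sublingual gland, 13.2 TPM in pancreas, 4.30 TPM in submandibular gland and 4.97 TPM in parotid. F5, the cofactor of factor Xa, had a median of 26.9 TPM in liver, 1.65 TPM in sublingual gland, 0.482 TPM in pancreas, 0.197 TPM in submandibular gland and 0.213 TPM in parotid. TFPI, which inhibits the tissue factor complex, had a median of 33.3 TPM in liver and 2.16 to 2.61 TPM in sublingual gland and pancreas, and its log2 fold change against liver was -2.95 in pancreas (SE 0.47, adjusted p = 1.55e-05 by limma).

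F8, the cofactor that factor IX needs, was higher in pancreas than in liver. It ranged from 0.638 to 1.49 TPM in liver with a median of 1.25, and from 1.30 to 4.97 TPM in pancreas with a median of 3.36. Its median was 0.638 TPM in parotid, 0.610 TPM in sublingual gland and 0.678 TPM in submandibular gland. The difference between pancreas and liver was 0.83 on the log2 scale (SE 0.27, adjusted p = 0.0213 by limma), higher in 6 of 6 animals, although the 2 groups overlapped. It lost its call without animal 1 (adjusted p = 0.105), animal 2 (0.0537) or animal 6 (0.0566), and with a pseudocount of 0.1 (0.0748). F8 was called in none of the glands against liver, and its estimate in parotid and in submandibular gland turned from negative to 0.19 with trimmed-mean scaling. With only the 12 libraries of parotid and liver in the fit it was lower in parotid (-0.36, adjusted p = 0.0435).

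F3 encodes tissue factor, the membrane receptor that starts clotting. It ranged from 3.44 to 9.55 TPM in liver (median 5.41), 1.41 to 48.7 TPM in pancreas (median 3.00), 1.27 to 2.84 TPM in parotid (median 1.90), 1.36 to 17.6 TPM in submandibular gland (median 1.66) and 0.345 to 39.8 TPM in sublingual gland (median 7.70). The parotid values lay below all liver values, and the sublingual values spread both below and above them. F3 against liver had a log2 fold change of -1.16 in parotid (SE 0.51, adjusted p = 0.0550 by limma) and 0.51 in sublingual gland (adjusted p = 0.499). Without the pancreas and submandibular libraries of animal 4 it was lower in parotid (adjusted p = 0.0249) and in submandibular gland (log2 fold change -1.18, adjusted p = 0.0287). F3 was also lower in parotid with only the 12 libraries of parotid and liver in the fit (adjusted p = 0.00174 by limma). The same held with a filter of 5 TPM (0.0491) and with a pseudocount of 0.1 (0.0476).

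VWF, the carrier of factor VIII and tether of platelets, and THBD, the thrombin receptor thrombomodulin, are products of endothelium. VWF had a median of 1.05 TPM in liver (0.871 to 2.47), 2.07 TPM in pancreas (1.62 to 64.1), 1.02 TPM in parotid (0.461 to 1.71), 3.66 TPM in sublingual gland (0.728 to 5.31) and 0.613 TPM in submandibular gland (0.448 to 39.0). THBD was lower still, with medians of 0.375 TPM in liver, 0.966 TPM in pancreas, 0.202 TPM in parotid, 1.13 TPM in sublingual gland and 0.139 TPM in submandibular gland. The pancreas median of THBD without animal 4 was 0.509 TPM. Neither gene was called against liver in any tissue, with VWF at 1.39 in pancreas (SE 0.58, adjusted p = 0.0734 by limma) and 0.87 in sublingual gland (adjusted p = 0.284). Without the pancreas and submandibular libraries of animal 4, the VWF estimate fell to 0.67 in pancreas (adjusted p = 0.0515), and VWF was higher in sublingual gland than in liver (log2 fold change 0.87, adjusted p = 0.00979). When the parotid of animal 6 was left out as well, VWF was higher in pancreas than in liver (0.68, adjusted p = 0.032 by limma). In that fit THBD was higher in sublingual gland than in liver (0.56, adjusted p = 0.0401). The pancreas level of VWF was at least 103% of liver in every animal. With only the 12 libraries of sublingual gland and liver in the fit, VWF was higher in sublingual gland (adjusted p = 0.0244). With trimmed-mean scaling both VWF and THBD were higher in pancreas than in liver (adjusted p = 0.00388 and 0.0335 by limma). That fit kept the pancreas library of animal 4. It held VWF at 64.1 TPM beside a next highest of 8.57, and THBD at 14.0 TPM beside 1.97. The summed level of 10 endothelial markers had medians of 66.2 TPM in liver, 55.7 TPM in sublingual gland, 30.9 TPM in pancreas, 17.9 TPM in submandibular gland and 15.5 TPM in parotid, and their part in these levels was not tested.

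**Figure D2:**
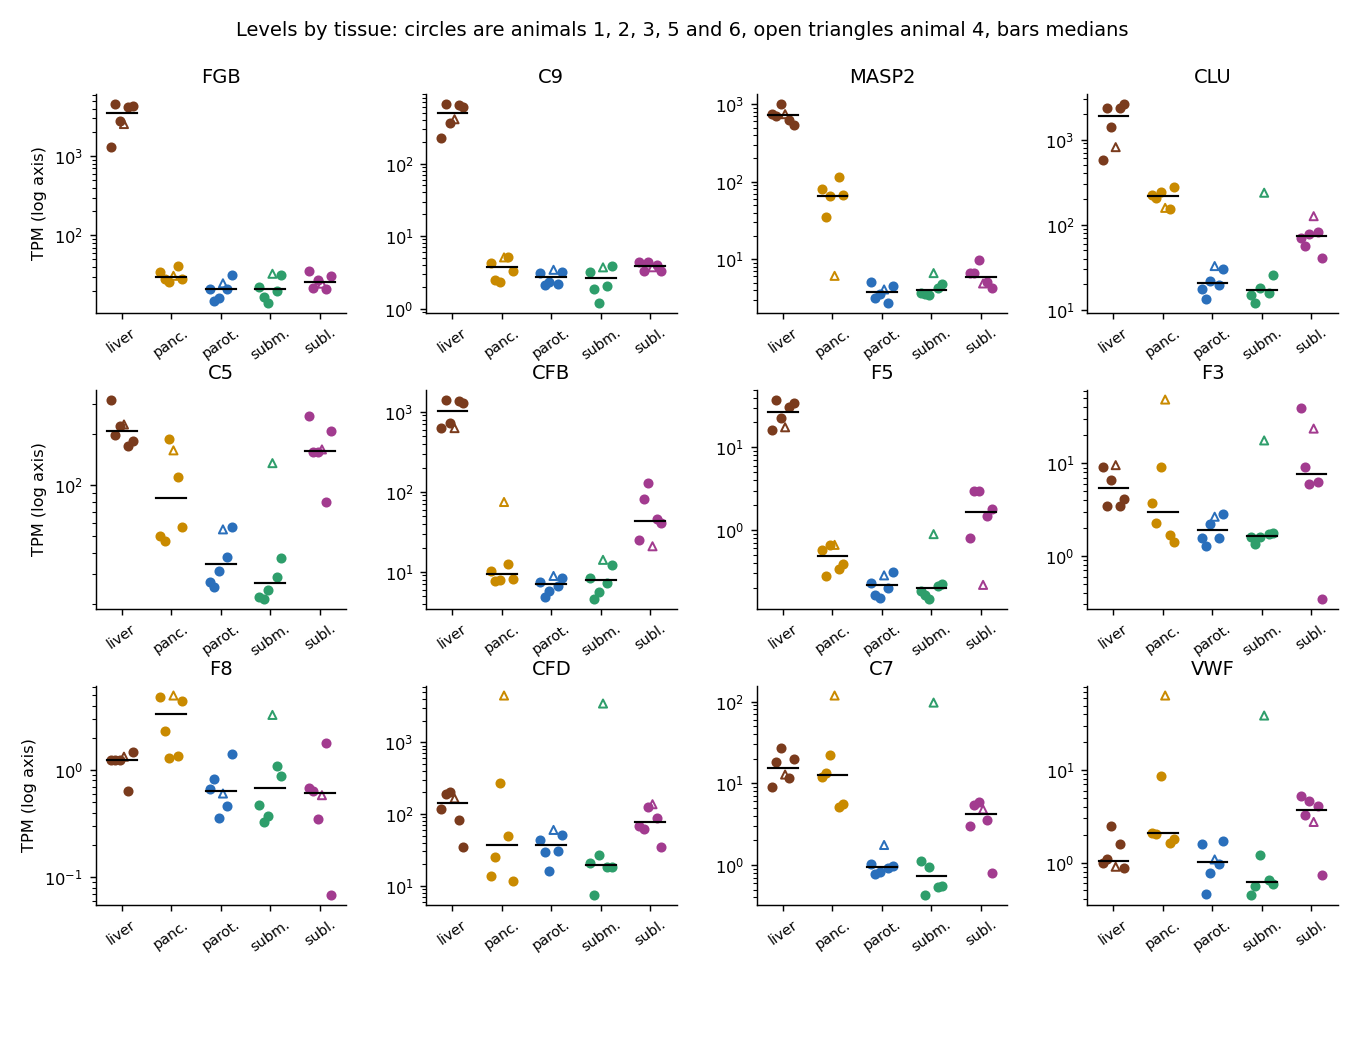
TPM (log axes, scaled per gene) of 12 members in 5 tissues, with 1 point per library, open triangles for animal 4 and bars for medians. FGB and C9 fall from liver to a low level in the other 4 tissues, MASP2 and CLU hold an intermediate level in pancreas, CFB and F5 in sublingual gland, and F8 in pancreas and F3 and VWF in sublingual gland have medians above that of liver.

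The starters of the classical and lectin pathways were lower than liver for all 8 tested members in all 4 tissues. C1S, the second protease of the C1 complex, ranged from 476 to 949 TPM in liver with a median of 773, and its median was 27.2 TPM in sublingual gland and 10.7 to 13.7 TPM elsewhere. C1R, its partner protease, had no row under its name, but its RefSeq gene number matched the row LOC722133, a match made after the values had been seen. That row ranged from 236 to 770.1 TPM in liver and from 4.51 to 25.4 TPM in the other tissues apart from animal 4, and stood at 4.68% of liver in sublingual gland. In the RefSeq table of assembly T2T-MMU8v2.0, C1S and C1R are adjacent.

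C1QA, C1QB and C1QC encode the 3 chains of C1q, the recognition unit of the classical pathway, and are textbook products of macrophages. C1QA ranged from 44.1 to 249 TPM in liver with a median of 144, and its median was 24.6 TPM in sublingual gland, 9.86 TPM in pancreas, 6.26 TPM in submandibular gland and 6.04 TPM in parotid. The 3 chains stood at 8.66% to 12.6% of liver in sublingual gland and at 3.34% to 5.42% in parotid, well above the hepatocyte share. The summed level of 10 macrophage markers had medians of 445.1 TPM in liver, 44.6 TPM in sublingual gland, 17.3 TPM in pancreas, 11.5 TPM in submandibular gland and 11.7 TPM in parotid, and none of them was at 0 in all 6 libraries of a tissue. The sublingual library of animal 4 had the highest C1QA of its tissue, 56.7 TPM, and the highest macrophage sum, 98.8 TPM beside at most 46.8 TPM in the others. The part of macrophages in the C1q levels was not tested. The 3 genes lie next to each other in the RefSeq table.

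MASP2, the lectin pathway protease that cleaves C4 and C2, had an intermediate level in pancreas. It ranged from 539.5 to 1019.6 TPM in liver (median 721), 6.10 to 114 TPM in pancreas (median 65.7), 2.73 to 5.15 TPM in parotid (median 3.82), 3.45 to 6.62 TPM in submandibular gland (median 3.97) and 4.30 to 9.66 TPM in sublingual gland (median 5.82). The lowest pancreas value was the library of animal 4, which lacks acinar markers, and the other 5 started at 34.8 TPM, above every gland library. MASP2 stood at 8.60% of liver in pancreas and at 0.503% to 0.847% in the glands. Its log2 fold change against pancreas was -3.28 in parotid (SE 0.41, adjusted p = 2.02e-06 by limma), -2.75 in sublingual gland (SE 0.41, adjusted p = 2.09e-05) and -3.15 in submandibular gland (adjusted p = 5.19e-06; -3.80 without the pancreas and submandibular libraries of animal 4), and it kept these calls without each animal in turn. MASP1, the related protease, did not share this pattern: its median was 1.60 TPM in pancreas and 1.58 TPM in sublingual gland.

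In the central and alternative pathway, C3, the protein on which all routes meet, ranged from 490.4 to 2417 TPM in liver with a median of 1482, and its medians elsewhere were 10.7 to 15.9 TPM. CFB, which supplies the protease of the alternative convertase, was raised in sublingual gland above the other non-liver tissues. It ranged from 625 to 1423 TPM in liver (median 1015), 20.8 to 128 TPM in sublingual gland (median 43.6), 7.60 to 74.6 TPM in pancreas (median 9.27), 4.80 to 8.87 TPM in parotid (median 7.02) and 4.59 to 14.1 TPM in submandibular gland (median 7.81). Every sublingual library was above every parotid and submandibular library. CFP, properdin, which stabilises that convertase, stood at 8.28% of liver in sublingual gland (median 2.21 TPM) and at 1.31% to 2.62% elsewhere, the 1.31% being submandibular gland, where it was 0.844% without animal 4. C2, the neighbour of CFB in the RefSeq table and its counterpart in the classical pathway, stood at 4.32% of liver in sublingual gland, beside 3.63% for CFB.

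CFD encodes factor D (adipsin), the protease that cuts factor B, and is abundant in fat cells. It ranged from 34.8 to 204 TPM in liver (median 141), 34.9 to 137 TPM in sublingual gland (median 77.9), 16.1 to 60.0 TPM in parotid (median 36.9), 11.8 to 4500.0 TPM in pancreas (median 37.0) and 7.45 to 3479 TPM in submandibular gland (median 19.5). The 4500.0 and 3479 TPM came from animal 4, where 7 adipocyte markers summed to 18430 TPM in pancreas and 8248 TPM in submandibular gland, against at most 1754 TPM and 131.9 TPM in the other animals. The next highest pancreas value, 274 TPM, was that of animal 3, whose adipocyte sum was the 1754 TPM. Liver had its CFD median of 141 TPM beside an adipocyte sum of 47.6 TPM by the median, and the part of fat cells in the CFD levels was not tested. CFD was called in no tissue against liver, with a log2 fold change of -1.66 in parotid (SE 0.88, adjusted p = 0.108 by limma). Without the pancreas and submandibular libraries of animal 4 it was lower than liver in parotid (-1.66, adjusted p = 0.00560), submandibular gland (-2.54, adjusted p = 0.000209) and pancreas (-1.51, adjusted p = 0.0219), and remained uncalled in sublingual gland (-0.54, adjusted p = 0.412). With only the 12 libraries of parotid and liver in the fit, CFD was also lower in parotid (-1.66, adjusted p = 0.00823 by limma).

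The terminal pathway builds the membrane pore from C5 to C9, and its members differed widely in where they were expressed. C9, the subunit that forms the ring of the pore, ranged from 225 to 672 TPM in liver with a median of 506, and its medians elsewhere were 2.64 to 3.84 TPM. C8G, a chain of the C8 complex, ranged only from 459 to 563 TPM in liver, and its medians elsewhere were 2.71 to 4.10 TPM. C6, C8A, C8B, C8G and C9 all lay near the hepatocyte share, and C5 and C7 did not.

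C5, whose cleavage starts the terminal pathway, stood at 75.3% of liver in sublingual gland by the median. It ranged from 169.7 to 319 TPM in liver (median 209.6), 79.8 to 255 TPM in sublingual gland (median 160.1), 47.0 to 188 TPM in pancreas (median 84.1), 25.3 to 57.0 TPM in parotid (median 34.5) and 21.5 to 135 TPM in submandibular gland (median 26.6). Liver and sublingual values overlapped, and the parotid values lay below all values of both. The log2 fold change against liver was -0.42 in sublingual gland (SE 0.38, adjusted p = 0.439 by limma), -1.29 in pancreas (adjusted p = 0.0101), -2.51 in parotid (adjusted p = 4.28e-06) and -2.60 in submandibular gland (adjusted p = 2.91e-06). The pancreas call was lost without animal 1 (adjusted p = 0.0794) or animal 2 (0.0760).

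C7, which anchors the growing pore in the membrane, overlapped between pancreas and liver and stood at 77.8% of liver in pancreas by the median. It ranged from 8.98 to 26.9 TPM in liver (median 15.6), 5.19 to 119 TPM in pancreas (median 12.6), 0.802 to 5.93 TPM in sublingual gland (median 4.18), 0.785 to 1.75 TPM in parotid (median 0.951) and 0.430 to 97.2 TPM in submandibular gland (median 0.741). The highest pancreas and submandibular values were those of animal 4, and without them the 2 ranges ended at 22.2 and 1.12 TPM. The log2 fold change between pancreas and liver was 0.02 (SE 0.61, adjusted p = 0.988 by limma), and -0.52 (adjusted p = 0.166) without the pancreas and submandibular libraries of animal 4. C7 was lower than liver in parotid (-3.02, adjusted p = 0.000207), submandibular gland (-2.30, adjusted p = 0.00310, and -3.24 without those libraries) and sublingual gland (-1.86, adjusted p = 0.0201), the last of which lost its call without the animal block (0.0517) and without animal 2 (0.0505), animal 3 (0.0607) or animal 6 (0.106). C6, separated from C7 by 1 gene in the RefSeq table, stood at 85.6 TPM in liver and 0.962 TPM in pancreas by the median, so the neighbours differed in their ratio between the tissues.

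All 5 complement regulators were lower than liver in all 4 tissues. VTN, vitronectin, which blocks insertion of the pore, ranged from 1422 to 2634 TPM in liver and from 9.30 to 29.7 TPM in all other libraries. CLU, clusterin, an inhibitor of the pore and an extracellular chaperone, ranged from 575 to 2644 TPM in liver (median 1889.5), 152 to 277 TPM in pancreas (median 215), 40.7 to 126 TPM in sublingual gland (median 73.9), 13.4 to 32.7 TPM in parotid (median 20.7) and 12.1 to 238 TPM in submandibular gland (median 17.1). Its pancreas level stood at 13.8% of liver, with the library of animal 4 inside the range of the others, and no pancreas library overlapped liver, parotid or sublingual gland. CFI, the protease that inactivates C3b, stood at 2.69% of liver in pancreas and 2.54% in sublingual gland.

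The members were next compared among the 4 tissues other than liver. Against pancreas, 8 members were lower in parotid (CFI, C5, C7, CLU, F8, MASP2, PROZ and VTN) and 0 higher, where 13.6% of all genes were lower and 2.24% higher. In submandibular gland, 6 were lower (C5, C7, CLU, F8, MASP2 and VTN) and 0 higher, against 7.46% and 2.25% of all genes. In sublingual gland, 4 were lower (C7, CLU, F8 and MASP2) and 2 higher (CFB and F5), against 3.51% and 10.4% of all genes. MASP2, CLU, C7 and F8 were thus lower in each gland than in pancreas. They remained so with trimmed-mean scaling, whereas C5, CFI and PROZ lost their calls against pancreas. VTN lost its calls in parotid and submandibular gland and gained one in sublingual gland. The shares of all genes lower and higher than pancreas were then 9.97% and 11.4% in sublingual gland, 8.45% and 8.92% in parotid, and 7.82% and 8.25% in submandibular gland.

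CLU against pancreas had a log2 fold change of -3.19 in parotid (SE 0.49, adjusted p = 3.57e-05 by limma), -1.52 in sublingual gland (adjusted p = 0.0371) and -2.90 in submandibular gland (adjusted p = 0.000152; -3.60 without the pancreas and submandibular libraries of animal 4). C7 had one of -3.04 in parotid (SE 0.61, adjusted p = 0.000913 by limma), -1.88 in sublingual gland (adjusted p = 0.0387) and -2.32 in submandibular gland (adjusted p = 0.0132). F8 had one of -1.19 in parotid (SE 0.27, adjusted p = 0.00308 by limma), -1.26 in sublingual gland (adjusted p = 0.00153) and -1.03 in submandibular gland (adjusted p = 0.0126). The parotid differences of all 3 genes kept their calls without each animal in turn. In sublingual gland, CLU and C7 lost theirs when animal 1, 2, 3, 5 or 6 was left out (highest adjusted p 0.148 and 0.129), and in submandibular gland C7 and F8 lost theirs without animal 1, 2 or 3 (0.123 and 0.122). The C7 call in sublingual gland was also lost without the animal block (adjusted p = 0.0969).

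Among the glands, 0 members differed between parotid and submandibular gland, where 0.214% of all genes were lower in parotid and 0.133% higher. At an unadjusted p below 0.05 in limma the count was also 0 of 47 members, against 4.20% of all genes. Parotid was below sublingual gland for 11 members (C1QA, C1QB, C2, CFB, C5, CFI, CLU, PROZ, F3, F5 and F12) and above it for 0, where 40.6% of all genes were lower and 0.893% higher. Submandibular gland was below it for 7 (CFB, C5, CLU, PROZ, F3, F5 and F12) and above it for 0, against 27.2% and 0.753% of all genes. These shares of members are below the shares of all genes. Without the animal block, C1QA (adjusted p = 0.103), C1QB (0.118) and C2 (0.0540) lost their calls in parotid and F3 (0.123) lost its call in submandibular gland. F12 in parotid lost its call when the sublingual library of animal 4 was left out together with its pancreas and submandibular libraries (0.0675). It also lost it without animal 1, 2, 3, 4 or 5 (highest adjusted p 0.14 by limma). In parotid, C1QA, C1QB and C2 lost theirs without animal 1, 2, 3 or 5, CFI without 1, 2 or 3, and F3 without 1 or 2. In submandibular gland, CLU, PROZ and F3 lost theirs without animal 1, 2, 3 or 5, and F12 without 1, 2 or 3. With only the 12 libraries compared, F12 was called in neither gland (0.159 and 0.298). With trimmed-mean scaling, which moved the median of all genes between parotid and sublingual gland from -0.70 to 0.01, CFB, C5 and F5 were the members that differed, in both comparisons, and F12 turned to 0.16 in parotid. The shares of all genes lower and higher were then 9.11% and 8.43% in parotid, and 8.26% and 6.46% in submandibular gland.

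CFB had a log2 fold change of -2.61 in parotid against sublingual gland (SE 0.47, adjusted p = 0.000223 by limma) and -2.40 in submandibular gland (adjusted p = 0.000857), lower in 6 of 6 animals in each. C5 had one of -2.09 in parotid (SE 0.38, adjusted p = 0.000223 by limma) and -2.18 in submandibular gland (adjusted p = 0.000325), also lower in 6 of 6 animals in each. F5 had one of -1.03 in parotid (SE 0.26, adjusted p = 0.00316 by limma) and -0.96 in submandibular gland (adjusted p = 0.00779), lower in 5 of 6 animals in each. The calls of CFB and C5 held without each animal in turn, and that of F5 in submandibular gland was lost without animal 2 or 3. Against pancreas, sublingual CFB was higher by 1.75 (SE 0.47, adjusted p = 0.0109 by limma; 2.46 without the 3 libraries of animal 4), lost without animal 2 or 3 (highest adjusted p 0.101), and F5 by 0.76 (SE 0.26, adjusted p = 0.0473), lost without animal 1, 2, 3, 5 or 6 (0.275). With only the 12 libraries of sublingual gland and pancreas in the fit, neither was called (adjusted p = 0.112 and 0.136).

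**Figure D3:**
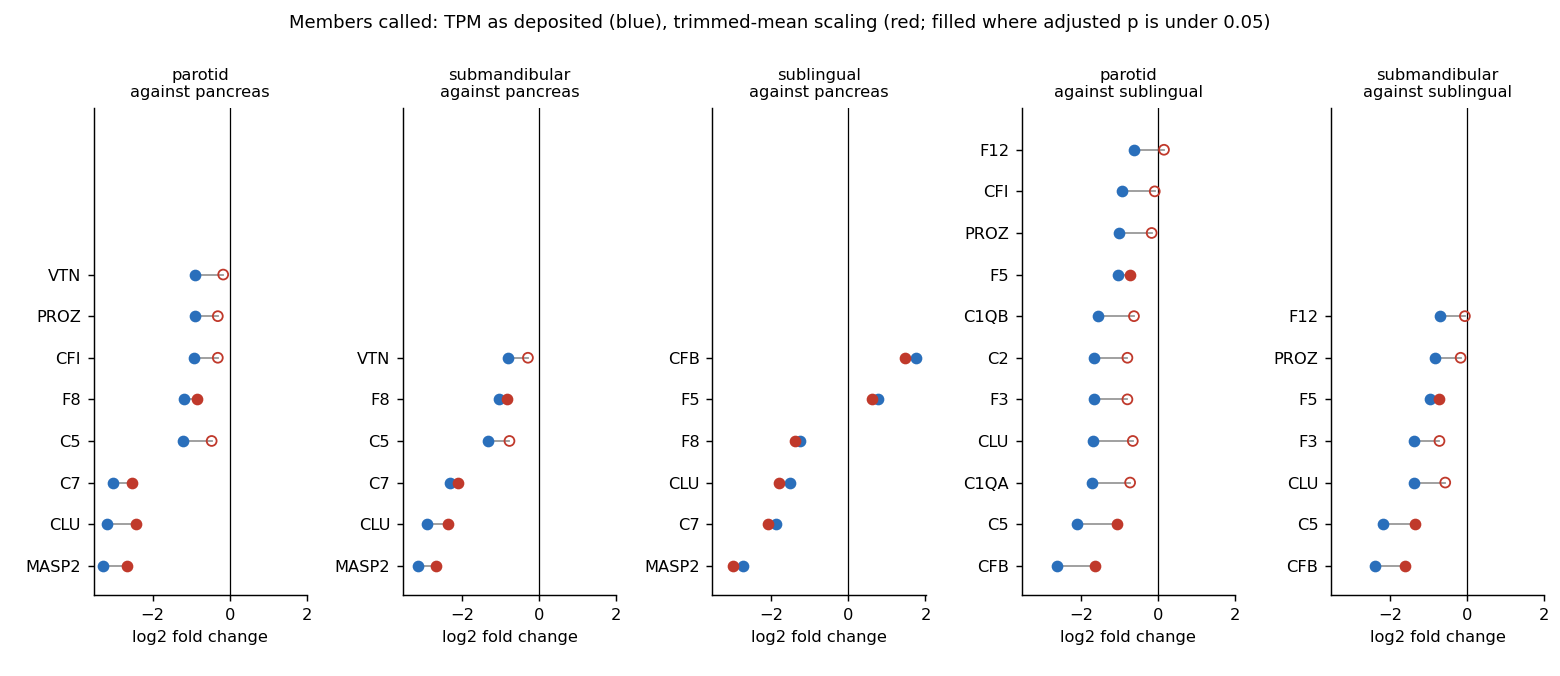
Log2 fold changes of the members called between the tissues other than liver, in 5 comparisons, from TPM as deposited (blue) and after trimmed-mean scaling (red, filled where the adjusted p is below 0.05, open where it is not). MASP2, CLU, C7 and F8 stay filled against pancreas, and CFB, C5 and F5 stay filled against sublingual gland.

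Leaving out the pancreas and submandibular libraries of animal 4 raised the counts among these tissues. Members lower than pancreas then numbered 10 of 47 in parotid, 5 in sublingual gland and 13 in submandibular gland, where 16.0%, 5.31% and 25.6% of all genes were lower. In sublingual gland 8 were higher than pancreas (C1QA, C1QB, C1S, C2, C5, CFB, CFP and F5), where 28.3% of all genes were. Members below sublingual gland numbered 22 in submandibular gland and 19 in parotid, where 65.6% and 57.3% of all genes were lower. The submandibular count against pancreas is near the share of all genes, and the counts of members higher in sublingual gland than in pancreas, parotid or submandibular gland are below it. With the sublingual library of animal 4 also left out, 5 members were higher in sublingual gland than in pancreas (C2, C5, CFB, CFP and F5), against 27.2% of all genes, and C1QA (adjusted p = 0.0742), C1QB (0.0778) and C1S (0.0612) were not called. The counts below sublingual gland were then 22 in submandibular gland and 17 in parotid, against 64.8% and 54.5% of all genes.

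In the pancreas library of animal 4, 12 of the 47 tested members (25.5%) were over 5 times the next highest pancreas library (C1QC, C1S, MASP1, C2, C3, CFB, CFD, C7, PROS1, F3, VWF and THBD), as was F13A1, where 5.81% of all genes tested were. In its submandibular library 18 were (38.3%; C1QA, C1QB, C1QC, C1S, MASP1, C2, CFD, CFP, C6, C7, CLU, F7, F10, PROS1, F3, VWF, THBD and TFPI), as was F13A1. There 35.3% of all genes were over 5 times, so the members' share was close to that of genes in general. After trimmed-mean scaling, 3 members (6.38%; C2, CFD and VWF) passed that fold in pancreas, against 2.32% of all genes, and 11 (23.4%; the C1q chains, C1S, C2, CFD, CFP, C7, F10, VWF and THBD) in submandibular gland, against 5.01%. In the other 28 libraries the count was 0 on either scale. Few genes passed there at all: at most 0.79% as deposited and 0.539% after scaling, apart from the parotid of animal 6. In that parotid library 4.92% and 2.44% of all genes passed. After CFD, the highest members in the submandibular library were C1QA and C1S, the latter at 359 TPM. C1QA reached 461 TPM there, where the other 5 animals had 4.05 to 8.70 TPM and its own liver library had 118 TPM. Macrophage markers summed to 469.5 TPM in that library and to at most 13.2 TPM in the other 5, and their part in the C1q values was not tested. The fibrinogen chains did not follow: FGB stood at 32.6 TPM there, beside 14.0 to 31.3 TPM in the others.

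**Figure D4:**
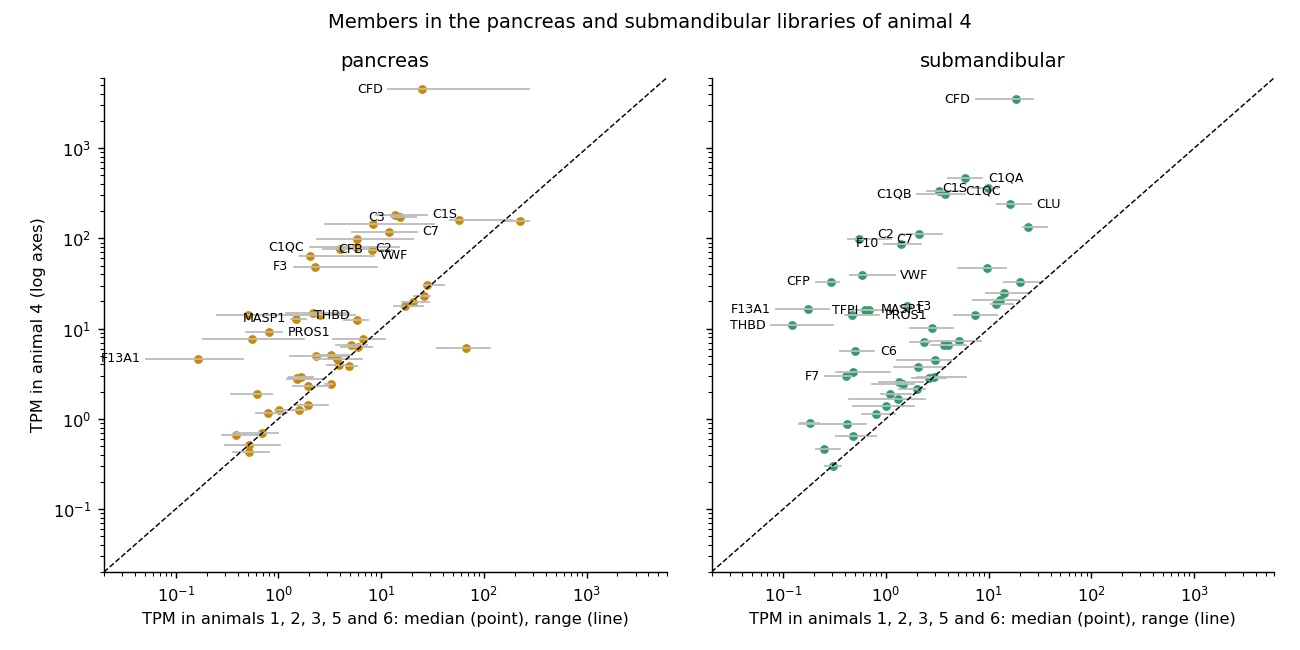
TPM of the members in the pancreas (left) and submandibular (right) libraries of animal 4, against the median (point) and range (line) of the other 5 animals, on log axes with the line of equality dashed. Labelled members are over 5 times the highest of the other 5; CFD lies farthest above the line, many members stay near it, and the lowest point far below it in pancreas is MASP2 at 6.10 TPM.

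The 6 livers differed in these genes by amounts that depended on the member. C8G varied least, with its highest liver 1.22 times its lowest, and PROS1 most, at 15.9 times (4.58 to 72.8 TPM). FGG, FGA and C3 spanned 5.63, 5.27 and 4.93 times. Of the 46 members whose liver mean was 1 TPM or more, 18 (39.1%) had their lowest liver in animal 1, where 14.3% of 11967 such genes had theirs, and 15 (32.6%) had their highest in animal 2, where 16.5% of genes had theirs. 5 members (10.9%), C5 and F12 among them, had their highest liver in animal 1, where 28.6% of genes had theirs. These orders rest on 1 liver per animal and were not tested.

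**Figure D5:**
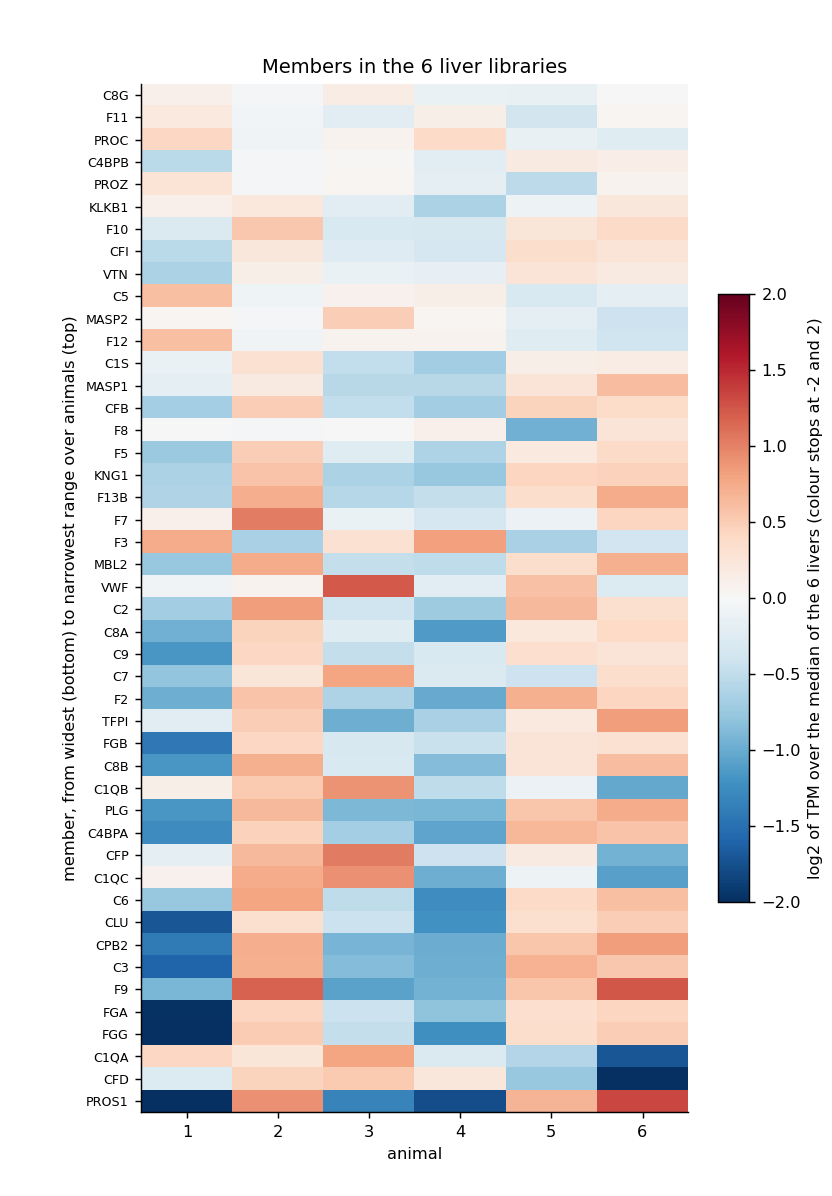
Colour is the log2 of a member's TPM in each of the 6 livers over the median of the 6, for members with a liver mean of at least 1 TPM, from the narrowest range (top) to the widest (bottom). Fibrinogen chains, C3 and CLU are blue in animal 1 and red in animals 2, 5 and 6, and C8G is near white throughout.

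Other genes of the 2 cascades, from a list kept apart from the members, were read the same way. Of 12 tested complement genes, 10 were lower than liver in parotid, 9 in submandibular gland, 7 in sublingual gland and 7 in pancreas, and 0 were higher. CD55 and CD59, which protect the cell's own membrane, were called in none. Of 19 tested coagulation genes, 12 were lower in each of the 3 glands and 10 in pancreas. Of all genes, 53.4% were lower in parotid, 45.1% in submandibular gland, 18.7% in sublingual gland and 23.6% in pancreas, so the 12 coagulation genes in parotid are close to the share of genes in general. PLAUR, the urokinase receptor, was higher in sublingual gland (1.41, SE 0.35, adjusted p = 0.00217 by limma) and TFPI2, a relative of TFPI, was higher in pancreas (1.24, SE 0.27, adjusted p = 0.000955 by limma). Of all genes, 4.61% were higher than liver in parotid, 5.68% in submandibular gland, 12.8% in sublingual gland and 6.76% in pancreas. The 1 of 19 coagulation genes higher in sublingual gland, and in pancreas, lies below these shares, as do the 0 complement genes.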

How the data were processed

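RNA was sequenced from frozen sections of 5 tissues of 6 rhesus macaques as paired reads on an Illumina HiSeq, per the labels. The authors deposited 1 table of TPM values with a column per library, and kallisto is among the tools in the submitters' processing notes. Its version, the transcriptome and the genome build are not given in the sources used here, so no coordinates are printed. Depth is unknown, and no interval that needs it is given. The unused per-sample columns numbered 0.

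Differences were tested on log2(TPM + 1) with limma 3.58.1 in R 4.3.3 (moderated variances with a trend), on the 13550 genes that reached 1 TPM in 6 libraries or more. The fit held tissue and animal for all 30 libraries, two-sided p-values were adjusted per comparison by Benjamini-Hochberg, and the threshold was 0.05. Fold changes on this scale understate the change of low genes. Animal was a block because the tissues came from the same animals; deviations from tissue means correlated at a mean of 0.161 over 60 same-animal pairs and -0.0417 between animals, with 37 of the 60 over 0.1. The highest correlation between libraries was 0.984, and 0 pairs were identical. The fit was tested on simulated data.

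Alternatives were no block, only the 12 libraries compared, trimmed-mean scaling, no filter, a 5 TPM filter, a pseudocount of 0.1, leaving out libraries whose marker RNA stood apart (pancreas and submandibular of animal 4, alone or with the parotid of animal 6), and leaving out each animal. Leaving out the sublingual library of animal 4 with the first pair was added after seeing the data. The members, marker lists and rules were chosen with earlier results of these data known. Members described in full are those not highest in liver by the mean, those not lower than liver in all 4 tissues, and the 2 highest in liver of each role; further members named for their pattern (the C1q chains, C2, CFP, C6, CFI, PROS1, F10, F13B, PLG, CPB2 and MASP1) were chosen after their values were seen. Gene neighbours came from RefSeq assembly T2T-MMU8v2.0, where all 48 members were found.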

Additional observations from a re-analysis of the deposited data

Results flagged for a closer look

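In each tissue, the 24 members described in full were screened for a library far from the other 5, which chance gives in about 1 in 20 sets. Of 120 sets, 19 had one, where 6.0 would be expected if the sets were independent. They are not, because all members were read in the same 30 libraries. The 19 are therefore a description, and the excess over 6.0 is no test.

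11 of the 19 were in the submandibular library of animal 4, all at the high end. There CFD was 3480 TPM beside a next highest of 26.9, C1S 359 beside 12.3, CLU 238 beside 25.9, C5 135 beside 37.1 and C7 97.2 beside 1.12. In the same library VWF was 39.0 TPM beside 1.22, F3 17.6 beside 1.78, F13A1 16.4 beside 0.277, TFPI 16.0 beside 1.26, THBD 10.8 beside 0.306 and F5 0.891 beside 0.224. 5 were in the pancreas library of animal 4, where C1S was 183 TPM beside 28.0, C3 172 beside 21.8, CFB 74.6 beside 12.7, THBD 14.0 beside 1.97 and F13A1 4.61 beside 0.451. In parotid, C7 was 1.75 TPM in animal 4 beside 1.02, and TFPI was 2.24 TPM in animal 6 beside 0.867, a library whose skeletal muscle markers summed to 93650 TPM. In liver, F8 was lowest in animal 5 at 0.638 TPM, with the next at 1.23.

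CFD in sublingual gland against liver was lower in all 4 females (mean log2 difference -0.84) and nearly equal in both males (mean 0.05). The males, animals 5 and 6, had 88.6 and 34.9 TPM in sublingual gland beside 83.2 and 34.8 TPM in liver. The females include animal 4, whose sublingual library went against its label. The difference between the sexes was not tested, and it was 1 of 96 such comparisons looked at.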

How the results depend on the processing

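The counts of members called against liver stayed within 1.5 times under every alternative, between 40 and 44 when 1 animal was left out. Those among the other tissues did not. Trimmed-mean scaling gave 4 for parotid against pancreas, 3 for parotid against sublingual gland and 3 for submandibular against sublingual gland. Fitting only the 12 libraries compared gave 10 for submandibular gland against pancreas and 2 for submandibular against sublingual gland. Without the pancreas and submandibular libraries of animal 4 the counts were 13 for submandibular gland against pancreas, 13 for sublingual gland against pancreas, 19 for parotid against sublingual gland and 22 for submandibular against sublingual gland, without these and the parotid of animal 6 they were 15, 13, 23 and 22, and without these and the sublingual library of animal 4, an alternative chosen after seeing the data, 13, 10, 17 and 22. Leaving out each animal gave 4 to 10 for parotid, 2 to 12 for submandibular gland and 2 to 10 for sublingual gland against pancreas, and 5 to 17 for parotid and 2 to 21 for submandibular against sublingual gland. In the last 4 the highest count came without animal 4, and the cause was not tested.

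Estimates that were not called changed sign as follows. Leaving out animals, pancreas against liver ran from -1.55 to 0.01 for CFD, -0.60 to 0.35 for C7 and -0.59 to 0.08 for F3. The C7 estimate went to -0.01 with a pseudocount of 0.1 and to -0.52, -0.51 and -0.53 under these 3 ways of leaving out libraries, taken in the same order, and the F3 estimate to 0.18 with trimmed-mean scaling. With that scaling the parotid estimates against liver became 0.19 for F8, 0.49 for VWF and 0.26 for THBD, and submandibular F8 became 0.19. Leaving out animals, parotid VWF ran from -0.28 to 0.02, parotid THBD from -0.10 to 0.04, submandibular VWF from -0.49 to 0.52 and submandibular THBD from -0.29 to 0.49. Under the same 3 ways, submandibular VWF became -0.46, -0.45 and -0.46, and THBD -0.28, -0.27 and -0.30. Without the replicate block the counts against liver were 42, 42, 40 and 42, and those among the other tissues 8, 6, 5, 0, 8 and 6; the block changed the call of 1 of 92 single-gene results against liver, C7 in sublingual gland, and 5 calls among the other tissues were lost without it (C7 in sublingual gland against pancreas, C1QA, C1QB and C2 in parotid and F3 in submandibular gland against sublingual gland). Unknown depth limits what can be said of values under 1 TPM.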
